A study of Homo sapiens with 9 samples.

Results

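The genes that set the pace of G1 were followed at every probe set of the array: the D cyclins CCND1, CCND2 and CCND3, their kinase partners CDK4 and CDK6, the CIP/KIP inhibitors CDKN1A, CDKN1B and CDKN1C, and the INK4 inhibitors CDKN2A and CDKN2B. A probe set was taken when the platform annotation gave one of these 10 symbols and no other gene, which selected 28 of 54613 probe sets, and 10 of 19775 genes. The samples were HuCCT1 cells, an established human cholangiocarcinoma (bile duct cancer) line, in 2 groups. The YAPS127A group (5 arrays) received a vector that overexpresses YAP1 S127A, a constitutively active form of the co-activator YAP1 whose serine substitution removes a main inhibitory site of the LATS kinases, and the empty vector group (4 arrays) received the vector alone. All cells grew in the same serum-containing RPMI medium. Cells were transfected before harvest, per the design text. It does not give the time between these steps, whether the cells were a clone or a pool, or whether the samples came from separate cultures, so p-values cover the spread between these arrays only, and that spread may be technical. Values are log2 signals per probe set, and differences are YAPS127A minus empty vector.

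Progress through G1 depends on D cyclins, which bind CDK4 or CDK6 and start the phosphorylation of the retinoblastoma protein RB1. This releases E2F factors, which switch on cyclin E and the genes of DNA synthesis. INK4 proteins bind CDK4 and CDK6 and keep the D cyclins off, whereas CIP/KIP proteins bind assembled cyclin and kinase complexes and mainly restrain CDK2. Growth signals act largely through the D cyclins, and TGF-beta signalling is known to act through CDKN2B. In cholangiocarcinoma, loss of CDKN2A is a recurrent event. YAP works through TEAD factors, and cyclin D1 and CDK6 have been described among its targets in other cells.

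RefSeq promoters (GRCh38.p14, 250 bases before to 50 after a transcript start) were available for 7 of the 10 members, with 11 windows in all. They are shown for CDKN1A and CDK6, the members with probe sets that passed the test, and for CDK4, the partner of CDK6 that did not. Each is read 5′ to 3′ on the strand of its gene. Capitals mark every match, on either strand, to 4 motifs: the TEAD core GGAATG, the Sp1 box GGGCGG, the E-box CACGTG that MYC binds, and the AP-1 site TGANTCA. No match overlapped one of another motif.
CDKN1A, chr6:36678464-36678763, plus strand: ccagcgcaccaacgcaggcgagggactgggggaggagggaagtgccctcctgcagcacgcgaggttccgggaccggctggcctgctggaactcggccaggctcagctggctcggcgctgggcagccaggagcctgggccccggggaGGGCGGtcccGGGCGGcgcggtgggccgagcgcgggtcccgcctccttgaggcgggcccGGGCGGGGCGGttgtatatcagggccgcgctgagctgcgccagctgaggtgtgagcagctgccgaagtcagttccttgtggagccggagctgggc
CDK6, chr7:92836524-92836823, minus strand: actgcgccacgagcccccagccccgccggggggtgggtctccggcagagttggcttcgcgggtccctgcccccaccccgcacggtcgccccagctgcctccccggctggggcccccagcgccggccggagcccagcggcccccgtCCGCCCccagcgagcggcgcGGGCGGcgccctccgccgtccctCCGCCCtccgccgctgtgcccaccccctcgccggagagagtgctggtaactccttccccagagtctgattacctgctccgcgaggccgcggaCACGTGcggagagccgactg
CDK6, second start, chr7:92833910-92834209, minus strand: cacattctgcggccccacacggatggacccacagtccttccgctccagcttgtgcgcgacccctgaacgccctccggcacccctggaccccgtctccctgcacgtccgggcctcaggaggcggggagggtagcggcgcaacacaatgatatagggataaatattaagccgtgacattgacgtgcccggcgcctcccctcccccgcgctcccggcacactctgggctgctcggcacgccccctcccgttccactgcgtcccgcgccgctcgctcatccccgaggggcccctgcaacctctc
CDK4, chr12:57752261-57752560, minus strand: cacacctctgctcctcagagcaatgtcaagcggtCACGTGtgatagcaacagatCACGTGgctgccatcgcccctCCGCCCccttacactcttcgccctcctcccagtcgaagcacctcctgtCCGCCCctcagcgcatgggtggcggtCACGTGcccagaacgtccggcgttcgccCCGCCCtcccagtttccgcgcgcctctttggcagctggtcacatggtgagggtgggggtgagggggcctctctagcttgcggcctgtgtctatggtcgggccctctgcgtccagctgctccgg

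The CDKN1A window held 4 Sp1 boxes and none of the other 3 motifs. The first CDK6 window held 3 Sp1 boxes and 1 E-box, and the second held no match. The CDK4 window held 3 E-boxes and 3 Sp1 boxes. The TEAD core was found in 2 of the 11 windows, 1 of CCND3 and the 1 of CDKN2B, and in 14.0% of all 35116 RefSeq promoters of this length. Sp1 boxes were in 8 of the 11 windows (45.0% of all promoters), E-boxes in 2 (7.26% of all) and AP-1 sites in 0 (7.71% of all). A match is a description of the letters in these windows and not a site shown to be bound.

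The arrays had median log2 signals of 5.95 to 5.98 and lower quartiles of 4.24 to 4.27, and precision is limited by how many arrays there were. Of 9 markers of biliary epithelium, the keratins KRT7, KRT8, KRT18 and KRT19, EPCAM and SOX9 were bright on every array (12.73 to 14.42 with YAPS127A and 12.81 to 14.31 with the empty vector), KRT8 being higher (+0.30) and SOX9 lower (-0.25) with YAPS127A. The other 3 were dimmer and lower with YAPS127A. CFTR, a chloride channel of bile duct cells, averaged 4.02 ± 0.35 (SD, n = 5) with YAPS127A, under the lower quartiles of the arrays, and 6.74 ± 0.20 (SD, n = 4) with the empty vector (-2.72). SPP1 (-1.37) and TFF1 (-1.46) fell as well. Markers of hepatocytes, fibroblasts, endothelium and leukocytes lay low on average (list means on single arrays of 4.22 to 5.61 with YAPS127A and 4.33 to 5.66 with the empty vector). Not every gene was dim. COL1A1 (7.51 with YAPS127A, 8.21 with the empty vector) and APOA1 (6.65 and 6.59) averaged above the array medians. So did CD14 with the empty vector (6.19), and PECAM1 lay near them (5.98 in both groups). Of all 16 markers of these other cell types, COL1A1 (-0.70) and CD14 (-0.45) were lower and the other 14 did not pass. The part of any of these markers in the results was not tested. ANKRD1, a standard YAP target, was higher with YAPS127A by 2.24 (SE 0.13, limma adjusted p = 3.38e-07). Of the other standard targets, CCN2 did not pass (+0.22, adjusted p = 0.107) but did so with the median of its neighbours removed (+0.72, adjusted p = 0.000249). CCN1 rose by 0.45 at its brightest probe set and by 0.66 at the other. With neighbours removed, the brightest was at +0.003 and did not pass (adjusted p = 0.986). The other CCN1 probe set passed under all 17 alternatives run for it, that one included (lowest difference +0.22, highest limma adjusted p = 0.042). The YAP1 transcript itself was not called at any of 3 probe sets (+0.03 to +0.16, lowest adjusted p = 0.121). The sources used here do not say if the vector's own transcript is read by them.

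Most of the G1 machinery differed little between YAPS127A and empty vector cells. CDKN1A was lower, CDK6 was higher at 3 of its 7 probe sets, and no probe set of the other 8 members passed the test. In limma across all probe sets with Benjamini-Hochberg adjustment and a threshold of 0.05, 4 of the 28 probe sets passed (14.3%), against 23.9% of all probe sets. The 3 higher ones compare with 11.9% of all probe sets called higher, and the 1 lower one with 12.0% called lower. Read at the brightest probe set of each gene, 1 of 10 members passed (10.0%), against 28.7% of all genes, and its direction, lower, was called in 14.2% of all genes. No member was called higher there, against 14.5% of all genes. Of the 19 probe sets with a mean signal above the array-wide median, 4 passed (21.1%), against 38.5% of all such probe sets. The median difference of the 28 probe sets was +0.10, and +0.001 over all probe sets. Without regard to sign the medians were 0.11 and 0.12. The groups did not overlap at 4 of the 28 probe sets (14.3%), against 22.3% of all, and at the brightest probe set of 2 of 10 members, against 28.3% of all genes.

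**Figure D1:**
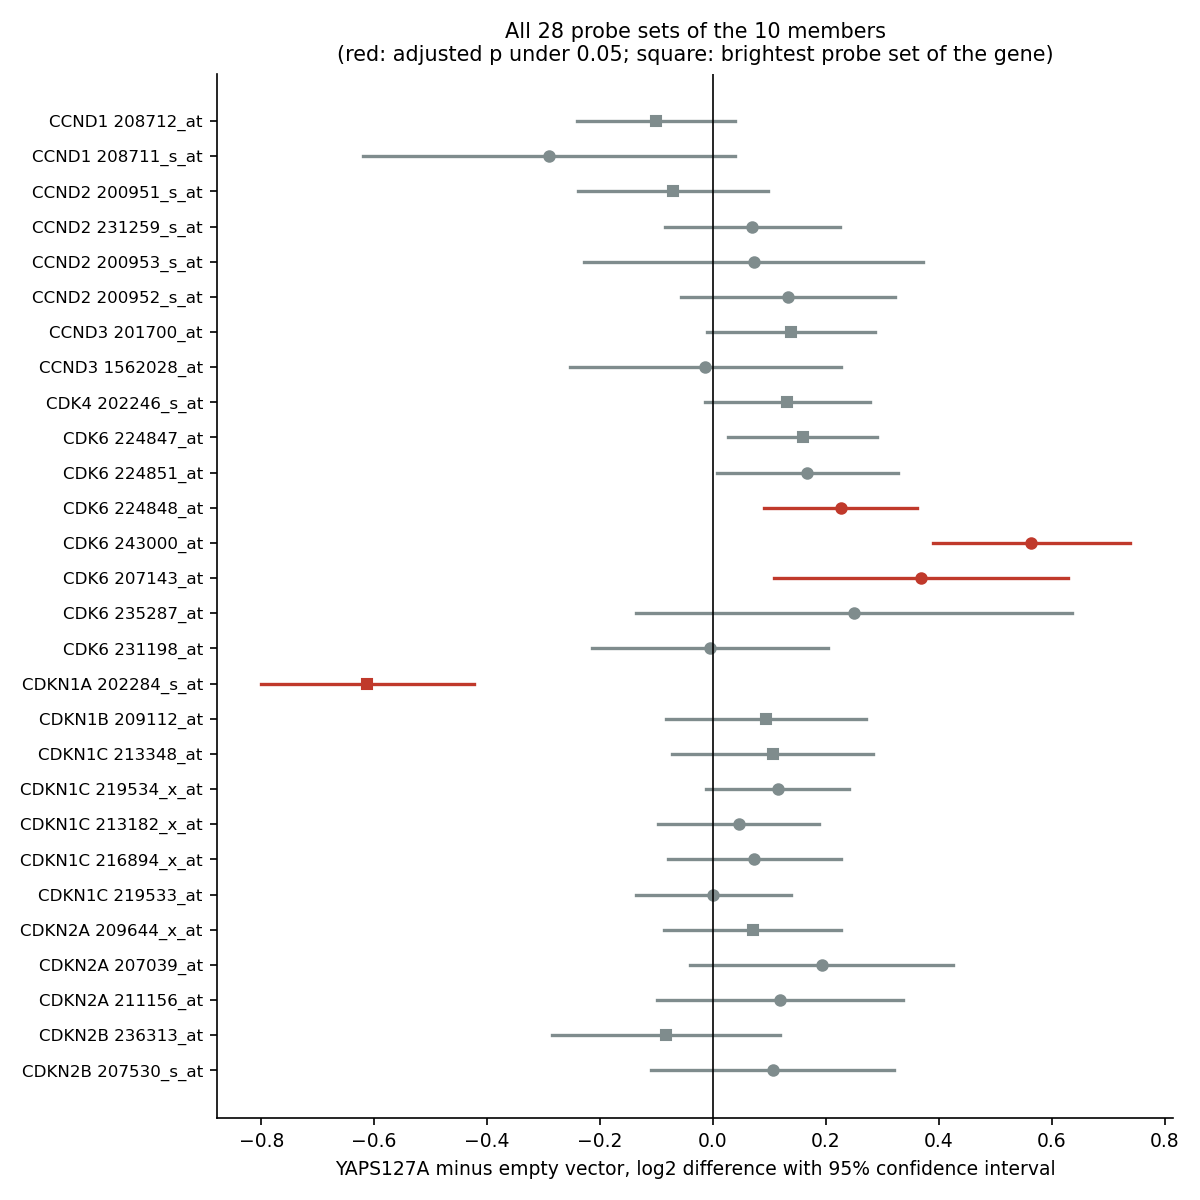
Log2 difference (YAPS127A minus empty vector, x axis) with its 95% confidence interval for each of the 28 probe sets, ordered by gene. Red marks the 4 that passed, with CDKN1A at -0.61 and CDK6 between 0.23 and 0.56, and squares mark the brightest probe set of each gene.

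CDKN1A encodes p21, the CIP/KIP inhibitor that is induced after DNA damage. Its single probe set, 202284_s_at, read 9.73, 9.48, 9.34, 9.46 and 9.43 in YAPS127A samples 1 to 5, against 9.99, 10.20, 10.18 and 10.03 in empty vector samples 1 to 4. Every YAPS127A array lay below every empty vector array, and YAPS127A sample 1 was the highest of its group. The means were 9.49 ± 0.15 (SD, n = 5) with YAPS127A and 10.10 ± 0.10 (SD, n = 4) with the empty vector. The difference was -0.61 (SE 0.09, 95% confidence interval -0.80 to -0.42), which is 1.53-fold lower, with a limma adjusted p = 0.000265. It kept its sign and its call under all 18 alternatives of the fit, where it ranged between -0.67 and -0.56. Genes next to it on chromosome 6 barely differed (median -0.002 over 50 neighbours). In bulk RNA, fewer cells that express a gene and less of its RNA per cell cannot be told apart.

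Some genes from a list of regulators of transcription of D cyclins and CDK inhibitors were read beside it. MDM2 and MYC were picked from it after their values were seen. Of all 16 measured genes on that list, 4 fell, 0 rose and 12 did not pass. The part of any of them in the CDKN1A difference was not tested. MDM2, a ubiquitin ligase that is likewise induced after DNA damage, differed by -0.08 (SE 0.07, adjusted p = 0.493). KLF4, a zinc finger factor known to activate CDKN1A in epithelia, was lower (-0.51, SE 0.10, adjusted p = 0.00224), at 9.05 ± 0.07 (SD, n = 5) with YAPS127A and 9.56 ± 0.23 (SD, n = 4) with the empty vector. MYC, which represses CDKN1A, differed by -0.44 but varied widely between arrays (SE 0.17, adjusted p = 0.0927).

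By profile over the 9 arrays, the genes most like CDKN1A among 19774 were TRIM44, ODR4 and ZNF496. Likeness was the root mean square difference of the 2 profiles after each was centred on its own mean, which was 0.0472 for TRIM44, 0.0533 for ODR4 and 0.0534 for ZNF496. All 3 were lower with YAPS127A, by -0.66, -0.59 and -0.63. This follows from how they were chosen, since the CDKN1A profile itself differs between the groups, and it is no separate result. With the median of its neighbours removed, TRIM44 was at -0.25 and did not pass (adjusted p = 0.0831).

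**Figure D2:**
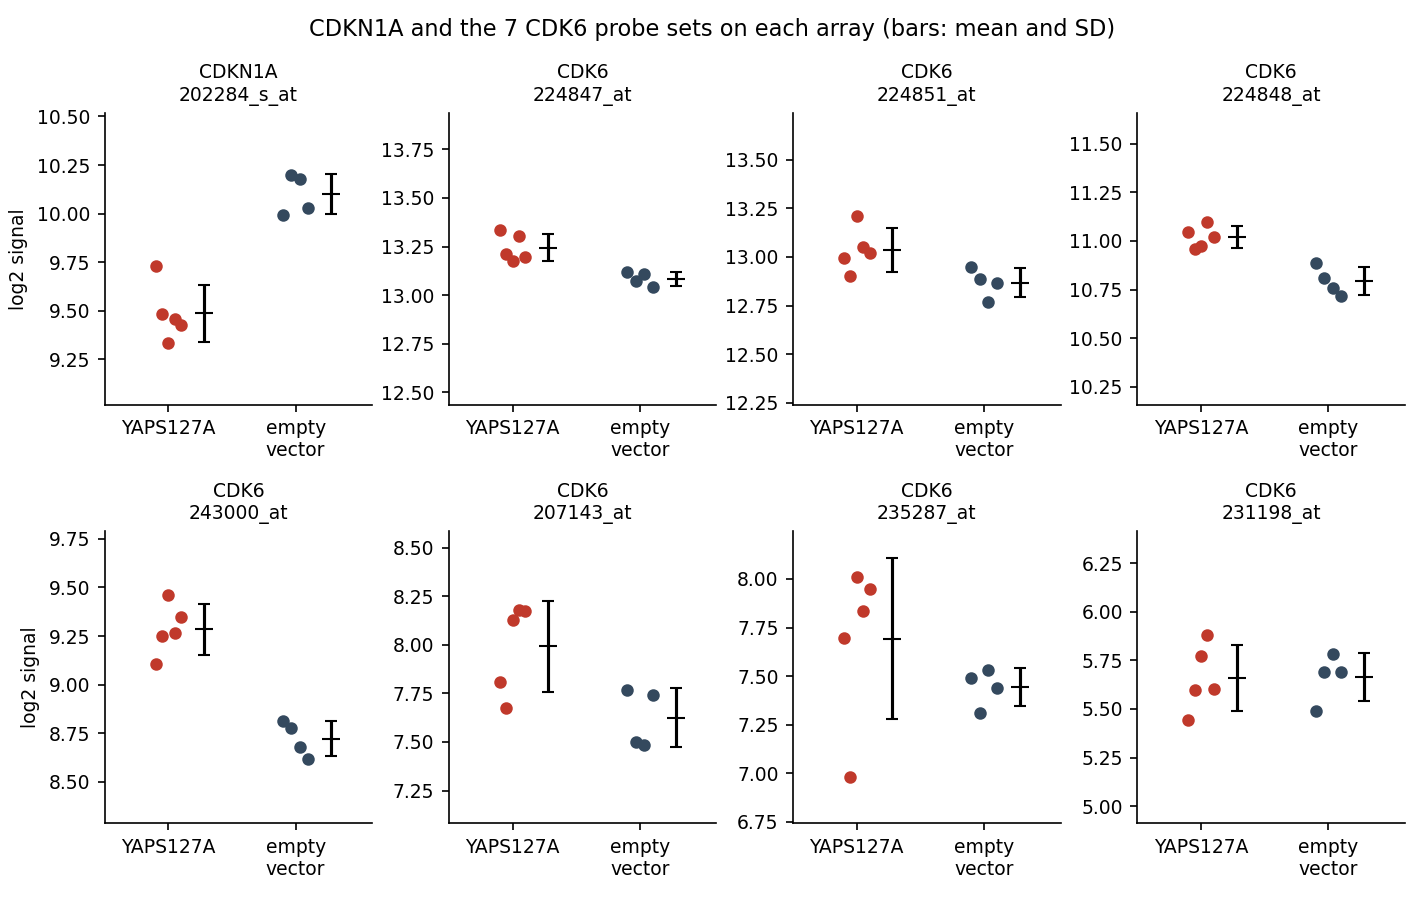
Log2 signal (y axis, each panel spanning the same 1.5 units) of CDKN1A and of the 7 CDK6 probe sets on each array, with the mean and SD of each group as bars. CDKN1A lies between 9.34 and 9.73 on YAPS127A arrays and between 9.99 and 10.20 on empty vector arrays, and among CDK6 probe sets the gap is widest at 243000_at.

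CDK6, a catalytic partner of the D cyclins, was read by 7 probe sets that differed in size of change. At 243000_at the YAPS127A samples had 9.10, 9.25, 9.46, 9.26 and 9.35, against 8.81, 8.78, 8.68 and 8.62 in empty vector samples. All 5 lay above all 4, and the difference was +0.56 (SE 0.08, 95% confidence interval 0.39 to 0.74, adjusted p = 0.000279), or 1.48-fold. This call held under every alternative run for it, with values of 0.51 to 0.61.

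A smaller rise was measured at 224848_at. It had 11.05, 10.96, 10.98, 11.10 and 11.02 with YAPS127A, against 10.89, 10.81, 10.76 and 10.72 with the empty vector. The groups did not overlap, and the difference was +0.23 (SE 0.06, adjusted p = 0.0191). The call was lost without empty vector replicate 4 (+0.20, adjusted p = 0.063). At 207143_at the values were 7.81, 7.68, 8.13, 8.18 and 8.18 with YAPS127A, against 7.77, 7.50, 7.49 and 7.74 with the empty vector. Here 1 YAPS127A array lay among the empty vector arrays, and the difference of +0.37 (SE 0.12, adjusted p = 0.0419) stayed past the threshold in only 3 of the 9 fits that left out an array: it was lost without empty vector replicate 2, 3 or 4 or YAPS127A replicate 3, 4 or 5 (adjusted p of 0.0544 to 0.116).

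The brightest CDK6 probe sets moved less. At 224847_at the values were 13.33, 13.21, 13.18, 13.30 and 13.19 with YAPS127A, against 13.12, 13.07, 13.11 and 13.04 with the empty vector. These groups did not overlap, yet the difference of +0.16 (SE 0.06) missed the threshold in limma (adjusted p = 0.0803), while its 2-sided exact permutation p = 0.00794 was the smallest that these 9 arrays can give. It passed with dim probe sets left out (adjusted p = 0.0363) and with trend and robust settings (adjusted p = 0.0107). At 224851_at the difference was +0.17 (SE 0.07, adjusted p = 0.131). The 235287_at probe set differed by +0.25 (SE 0.18, adjusted p = 0.37) and rested on YAPS127A sample 2, which read 6.98 against 7.70 to 8.01 in the other 4. Without it the difference was +0.43 (adjusted p = 0.00407). The 231198_at probe set, whose signal lay just under the array median, differed by -0.005 (adjusted p = 0.983).

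Averaged over its 7 probe sets, CDK6 was higher by 0.25 (SE 0.07, limma adjusted p = 0.0137 among gene means). The neighbours of CDK6 on chromosome 7 were higher by a median of 0.05. With that median removed, 243000_at was at +0.51 (adjusted p = 0.000418), 224848_at at +0.17 (adjusted p = 0.0926) and 207143_at at +0.31 (adjusted p = 0.0859). The sources used here do not place each probe set along the transcript, so whether the unequal changes reflect different transcripts was not tested.

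CDK4, the second kinase of this pair, had 12.26, 12.47, 12.30, 12.50 and 12.43 at 202246_s_at with YAPS127A, against 12.28, 12.25, 12.22 and 12.29 with the empty vector. The groups overlapped, 4 of the 5 YAPS127A arrays being above all empty vector arrays. The difference of +0.13 (SE 0.07, adjusted p = 0.196) had a 95% confidence interval of -0.01 to 0.28.

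None of the 8 D cyclin probe sets passed, with differences between -0.29 and +0.14 and a lowest adjusted p = 0.181. CCND1, the D cyclin that growth factor signals usually induce, had 12.76, 12.64, 12.72, 12.63 and 12.80 at its brightest probe set, 208712_at, with YAPS127A, against 12.76, 12.76, 12.89 and 12.84 with the empty vector. The groups overlapped, and the difference was -0.10 (SE 0.06, 95% confidence interval -0.24 to 0.04, adjusted p = 0.311). Its other probe set, 208711_s_at, had 8.61, 8.24, 8.92, 8.96 and 9.12 with YAPS127A, against 9.13, 9.10, 8.95 and 9.05 with the empty vector. YAPS127A samples 1 and 2 lay lowest, and the spread of that group (SD 0.35, n = 5) exceeded that of the empty vector group (SD 0.08, n = 4), so the difference of -0.29 (SE 0.15, adjusted p = 0.208) was not distinguishable from 0.

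The genes around CCND1 on chromosome 11 were higher with YAPS127A, by a median of 0.16 over 50 neighbours. With that median removed on each array, 208712_at was at -0.26 and passed (adjusted p = 0.0189), and 208711_s_at was at -0.45 and did not (adjusted p = 0.0573). Among 10 genes of its own region, 2 rose and 1 fell: FADD, an adaptor of death receptors, by +0.48 (SE 0.09, adjusted p = 0.00223), MYEOV by +0.28 (SE 0.07, adjusted p = 0.00761), and FGF19, a bile-acid responsive growth factor, by -0.33 (SE 0.10, adjusted p = 0.0286). ANO1, a calcium-activated chloride channel, differed by +0.17 (adjusted p = 0.0847). With the median of the neighbours removed, FADD was at +0.31 (adjusted p = 0.0114), and MYEOV, at +0.13, did not pass (adjusted p = 0.121). The FGF19 signals lay near the lower quartiles of the arrays (3.80 to 4.52), and its call was lost without empty vector replicate 3 or 4 or YAPS127A replicate 2 or 5 (adjusted p of 0.0623 to 0.0698).

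CCND3 had 10.41, 10.51, 10.61, 10.47 and 10.49 at 201700_at with YAPS127A, against 10.33, 10.30, 10.31 and 10.50 with the empty vector. All 5 YAPS127A arrays lay above 3 of the 4 empty vector arrays, and empty vector sample 4 lay among them. The difference was +0.14 (SE 0.07, adjusted p = 0.181). A dim second probe set, 1562028_at, differed by -0.01 (adjusted p = 0.956). CCND2 gave low signals at all 4 probe sets, from 2.76 to 5.33, which is under the array medians, and 2 of them lay below the lower quartiles. Its brightest, 200951_s_at, had 4.99 to 5.19 with YAPS127A and 5.05 to 5.33 with the empty vector, a difference of -0.07 (SE 0.08, adjusted p = 0.587). The other 3 differed by +0.07 to +0.13.

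**Figure D3:**
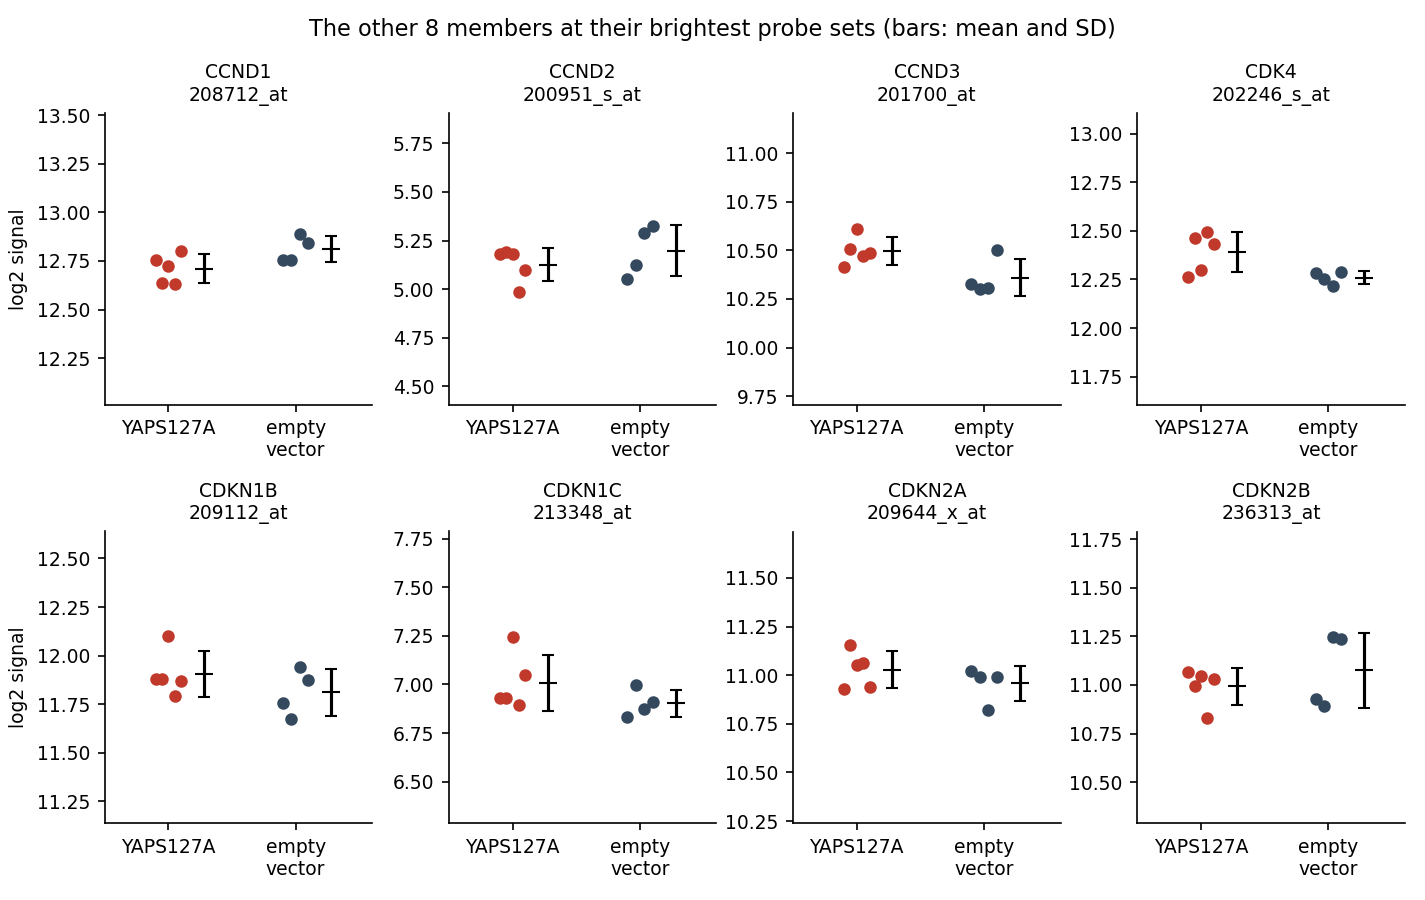
Log2 signal (y axis, each panel spanning the same 1.5 units) on each array at the brightest probe set of the 8 members other than CDKN1A and CDK6, with the mean and SD of each group as bars. The groups overlap in all 8 panels, with differences between -0.10 and 0.14.

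CDKN1B encodes p27, the inhibitor that accumulates in resting cells and is mainly controlled at the level of the protein. It had 11.88, 11.88, 12.10, 11.80 and 11.87 at 209112_at with YAPS127A, against 11.76, 11.67, 11.94 and 11.88 with the empty vector. The difference was +0.09 (SE 0.08, 95% confidence interval -0.08 to 0.27, adjusted p = 0.477). Its chromosome 12 neighbours were higher by a median of 0.12, and with that removed it was at -0.02 (adjusted p = 0.88).

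CDKN1C, the imprinted inhibitor p57, gave signals between 5.26 and 7.24 at its 5 probe sets. The differences were +0.001 to +0.12, and none passed (lowest adjusted p = 0.194, at 219534_x_at). Neighbours of CDKN1C differed by a median of 0.003. The CIP/KIP class thus held 1 probe set lower, 0 higher and 6 that did not pass.

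The INK4 genes, which lie side by side on chromosome 9, had no probe set past the threshold. CDKN2A, which encodes p16 and, from another start, ARF, had 10.93, 11.16, 11.05, 11.06 and 10.94 at 209644_x_at with YAPS127A, against 11.02, 10.99, 10.82 and 10.99 with the empty vector. The difference was +0.07 (SE 0.07, adjusted p = 0.556). At 207039_at it was +0.19 (SE 0.11, adjusted p = 0.239), with 10.72 to 11.17 in YAPS127A samples and 10.54 to 10.94 in empty vector samples. The third probe set, 211156_at, lay between 4.21 and 4.84. The x in the name of 209644_x_at is the manufacturer's mark for probes that may also bind other sequences.

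CDKN2B, the INK4 gene that TGF-beta induces in epithelia, had 11.07, 10.99, 11.05, 10.83 and 11.03 at 236313_at with YAPS127A, against 10.93, 10.89, 11.25 and 11.24 with the empty vector. The groups overlapped, with 2 empty vector arrays above all YAPS127A arrays, and the difference was -0.08 (SE 0.09, 95% confidence interval -0.28 to 0.12, adjusted p = 0.599). The 207530_s_at probe set differed by +0.11 (adjusted p = 0.516). Of 5 neighbouring genes, KLHL9, an adaptor of a ubiquitin ligase, rose by 0.42 (adjusted p = 0.00089) at its brightest probe set but by 0.10 when its 4 probe sets were averaged, which did not pass (adjusted p = 0.271). The other 4 did not pass, among them MTAP, the methionine salvage enzyme often deleted together with CDKN2A, at -0.06 (SE 0.06, adjusted p = 0.545), with 11.38 ± 0.05 (SD, n = 5) under YAPS127A and 11.44 ± 0.04 (SD, n = 4) under the empty vector. ELAVL2 was at -0.14 (adjusted p = 0.23) and CDKN2B-AS1 at +0.08 (adjusted p = 0.577).

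Among the 9 members that did not pass at their brightest probe set, the 95% confidence intervals at that probe set together reached from -0.28 to +0.29 on the log2 scale, or 0.821-fold to 1.22-fold. Intervals at other probe sets of these members reached further, so this range does not bound the change of a gene. Examples are CDK6 243000_at (0.39 to 0.74), CDKN2A 207039_at (-0.04 to 0.43) and CCND1 208711_s_at (-0.62 to 0.04). Of the 10 members, 2 had an unadjusted limma p under 0.05, CDKN1A and CDK6.

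Whether paralogs differed in their change was tested on the difference between their brightest probe sets within each array, by 2-sided exact permutation of the group labels with Benjamini-Hochberg adjustment over 8 pairs. None passed at 0.05. The pairs with the largest shifts were those with CDKN1A. CDKN1A minus CDKN1B was -2.42 ± 0.22 (SD, n = 5) with YAPS127A and -1.71 ± 0.16 (SD, n = 4) with the empty vector, a shift of -0.71 (exact permutation p = 0.00794, adjusted p = 0.0635). CDKN1A minus CDKN1C shifted by -0.72 (exact permutation p = 0.0159, adjusted p = 0.0635). In both pairs all 5 YAPS127A arrays lay below all 4 empty vector arrays. With 8 pairs, the smallest p these arrays allow cannot pass on its own, and needs other pairs with a low p as well.

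CCND1 minus CCND3 was 2.21 ± 0.11 (SD, n = 5) with YAPS127A and 2.45 ± 0.10 (SD, n = 4) with the empty vector, a shift of -0.24 with overlapping arrays (exact permutation p = 0.0317, adjusted p = 0.0635). CCND2 minus CCND3 shifted by -0.21 (adjusted p = 0.0635). Over the 13 alternatives run for this pair, the shift ranged from -0.25 to -0.01 (exact permutation adjusted p of 0.0508 to 0.865). With probe sets averaged, CCND2 differed by +0.05 and CCND3 by +0.06. The pairs CDK4 and CDK6 (-0.03, adjusted p = 0.913), CCND1 and CCND2 (-0.03, adjusted p = 0.847), CDKN1B and CDKN1C (-0.01, adjusted p = 0.913) and CDKN2A and CDKN2B (+0.15, adjusted p = 0.483) were not told apart, which does not show that they changed alike. CCND1 minus CCND2 did pass with probe sets averaged (-0.25, exact permutation adjusted p = 0.0317). It also passed with neighbours' medians removed (-0.14, exact permutation adjusted p = 0.0476).

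**Figure D4:**
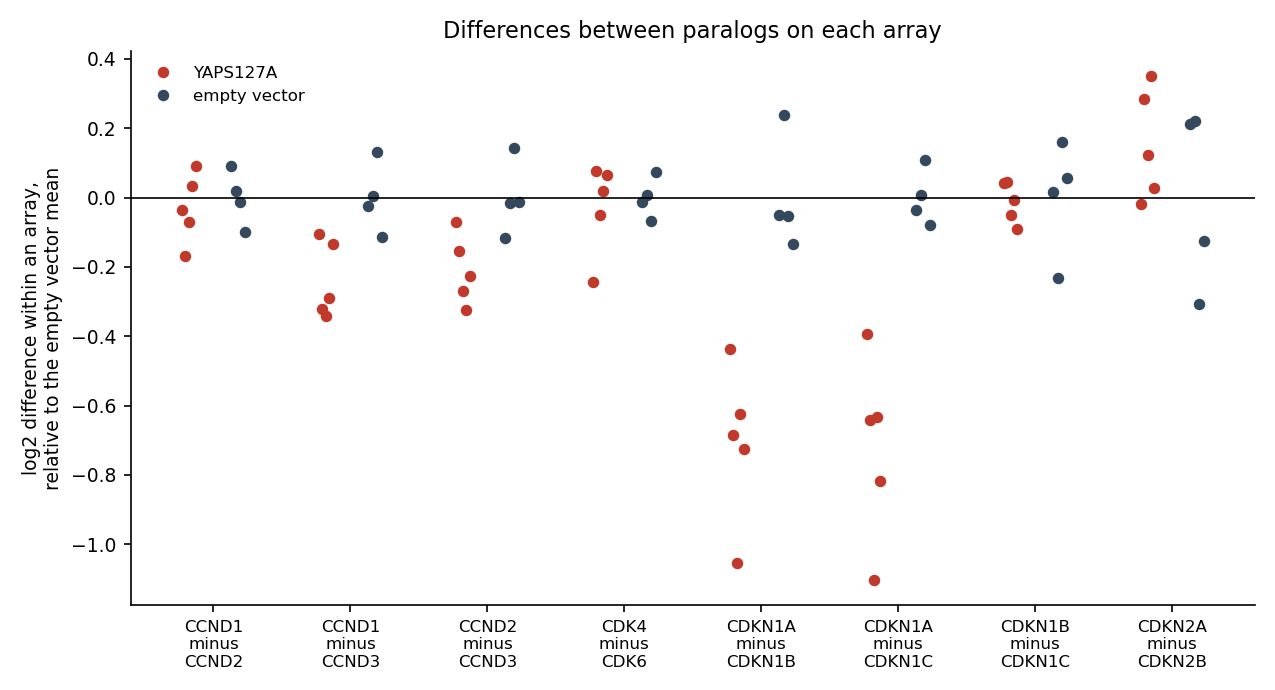
Log2 difference between the brightest probe sets of 2 paralogs on each array (y axis), relative to the empty vector mean of the pair, for 8 pairs (x axis). YAPS127A arrays lie below all empty vector arrays in the 2 pairs that hold CDKN1A, with shifts of -0.71 and -0.72, and overlap with them in the other 6.

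The other genes of the pathway were read at their brightest probe sets from 9 lists. Counts in all 9, including the neighbours given above, are to be read against the shares over all genes. These were 28.7% called, 14.5% higher and 14.2% lower. Of 13 RB family, E2F and DP genes, 2 rose, 1 fell and 10 did not pass (median +0.06, against +0.005 for all genes). E2F5, an E2F that acts with the pocket proteins as a repressor, had 7.87, 7.62, 7.84, 7.81 and 7.70 with YAPS127A, against 8.38, 8.62, 8.68 and 8.76 with the empty vector. The difference of -0.84 (SE 0.09, adjusted p = 2.92e-05) separated the groups fully, and was -0.51 (adjusted p = 0.00173) with the median of its neighbours removed. RBL2, the pocket protein p130 of resting cells, rose by 0.57 (SE 0.09, adjusted p = 0.000602), and E2F4, its usual partner, by 0.31 (SE 0.07, adjusted p = 0.00573). Both lie on chromosome 16, where neighbours were higher by 0.44 and 0.37, and with these medians removed RBL2 was at +0.13 and E2F4, with its sign turned, at -0.06, and neither passed. RB1 differed by +0.24 (adjusted p = 0.0649), with neighbours higher by 0.33.

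Of 9 genes of cyclin E, cyclin A, CDK2 and their activators, 2 rose and 1 fell (median -0.03). CCNH, the cyclin of the kinase that activates CDKs, rose by 0.41 (SE 0.07, adjusted p = 0.00110), and its kinase CDK7 differed by +0.18 (adjusted p = 0.116), and passed with neighbours removed (+0.27, adjusted p = 0.0283). CDK2 rose by 0.21 (SE 0.07, adjusted p = 0.0482). Its call was lost in 6 of the 9 fits that left out an array: without empty vector replicate 3 or 4 or YAPS127A replicate 2, 3, 4 or 5 (adjusted p of 0.0664 to 0.14). It was also lost with neighbours removed (adjusted p = 0.106). CCNE2, a cyclin E under E2F control, fell (-0.50, SE 0.12, adjusted p = 0.00767), and was at -0.30 with the median of its neighbours removed (adjusted p = 0.0664).

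Of 3 other measured genes named for CDK inhibition or for a partner of an inhibitor, none rose and 1 fell. That was CDKN2AIP (-0.23, SE 0.06, adjusted p = 0.0152), whose product binds ARF and is not itself a CDK inhibitor. CDKN2D, an INK4 gene, was at -0.13 (adjusted p = 0.22), and CDKN3, a phosphatase of CDKs, at -0.06 (adjusted p = 0.623). CDKN2C was not analysed here.

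Genes for the turnover of p27, p21 and D cyclins moved both ways, 3 higher and 3 lower of 12 (median -0.01). FBXO4, an F-box protein described as an adaptor for cyclin D1 degradation, had the largest difference in these 9 lists. It had 9.65, 9.65, 9.68, 9.66 and 9.67 with YAPS127A, against 8.56, 8.67, 8.57 and 8.66 with the empty vector. The difference was +1.05 (SE 0.06, adjusted p = 1.36e-07), and +0.42 when its 3 probe sets were averaged. AMBRA1, the adaptor that targets D cyclins for degradation, fell (-0.32, SE 0.06, adjusted p = 0.00302), but was at -0.03 with the median of its neighbours removed (adjusted p = 0.787). SKP2, the F-box protein that targets p27, rose by 0.24 (SE 0.06, adjusted p = 0.00976). FZR1, an activator of the anaphase-promoting complex in G1, fell (-0.36, SE 0.10, adjusted p = 0.017), and lost its call without empty vector replicate 1 (adjusted p = 0.0559) or 4 (adjusted p = 0.0587) and with the median of its neighbours removed (-0.24, adjusted p = 0.166). Averaging its 4 probe sets gave -0.17 (adjusted p = 0.0333), and averaging the 5 of AMBRA1 gave -0.16 (adjusted p = 0.0277).

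Of 15 S phase genes under E2F control, 4 rose, 1 fell and 10 did not pass (median +0.01). GINS2 (+0.52) and CDT1 (+0.47), which load and start the replicative helicase, and the thymidylate synthase gene TYMS (+0.36, SE 0.08, adjusted p = 0.00525) rose, and the helicase subunit gene MCM4 fell (-0.34). With the median of the neighbours removed, TYMS passed (+0.33, adjusted p = 0.0119), and GINS2 (+0.17), CDT1 (+0.23) and MCM4 (-0.11) did not. Averaged over probe sets, GINS2 was at +0.29 and TYMS at +0.21, and both passed. Of 8 proliferation markers, 1 rose and 2 fell (median -0.08): CDK1 by +0.29 (adjusted p = 0.00411), TOP2A by -0.36 (adjusted p = 0.00181) and BUB1 by -0.20 (adjusted p = 0.0482). CDK1 was at -0.01 once the median of its neighbours was removed, and the BUB1 call was lost without empty vector replicate 1, 3 or 4 or YAPS127A replicate 1, 2, 4 or 5 (adjusted p of 0.0824 to 0.125) and with neighbours removed (adjusted p = 0.0821). TOP2A was then at -0.23 (adjusted p = 0.0303). MKI67, the standard marker of cycling cells, differed by -0.22 (SE 0.10, adjusted p = 0.145), and by -0.30 (adjusted p = 0.021) without YAPS127A replicate 1. Averaged over its 4 probe sets, MKI67 was at -0.29 and passed (adjusted p = 0.0346). With neighbours removed it was at -0.24 and did not (adjusted p = 0.12).

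Of 16 regulators of transcription of D cyclins and CDK inhibitors, 4 fell, none rose and 12 did not pass (median -0.18). Besides KLF4, the falls were those of the histone demethylase gene KDM6B (-0.46, SE 0.12, adjusted p = 0.0125, and -0.30 over its 5 probe sets), the Wnt effector TCF7L2 (-0.25, SE 0.06, adjusted p = 0.00852) and the TGF-beta effector SMAD3 (-0.22, SE 0.05, adjusted p = 0.0107). Averaging the 4 SMAD3 probe sets gave -0.03 (adjusted p = 0.77).

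**Figure D5:**
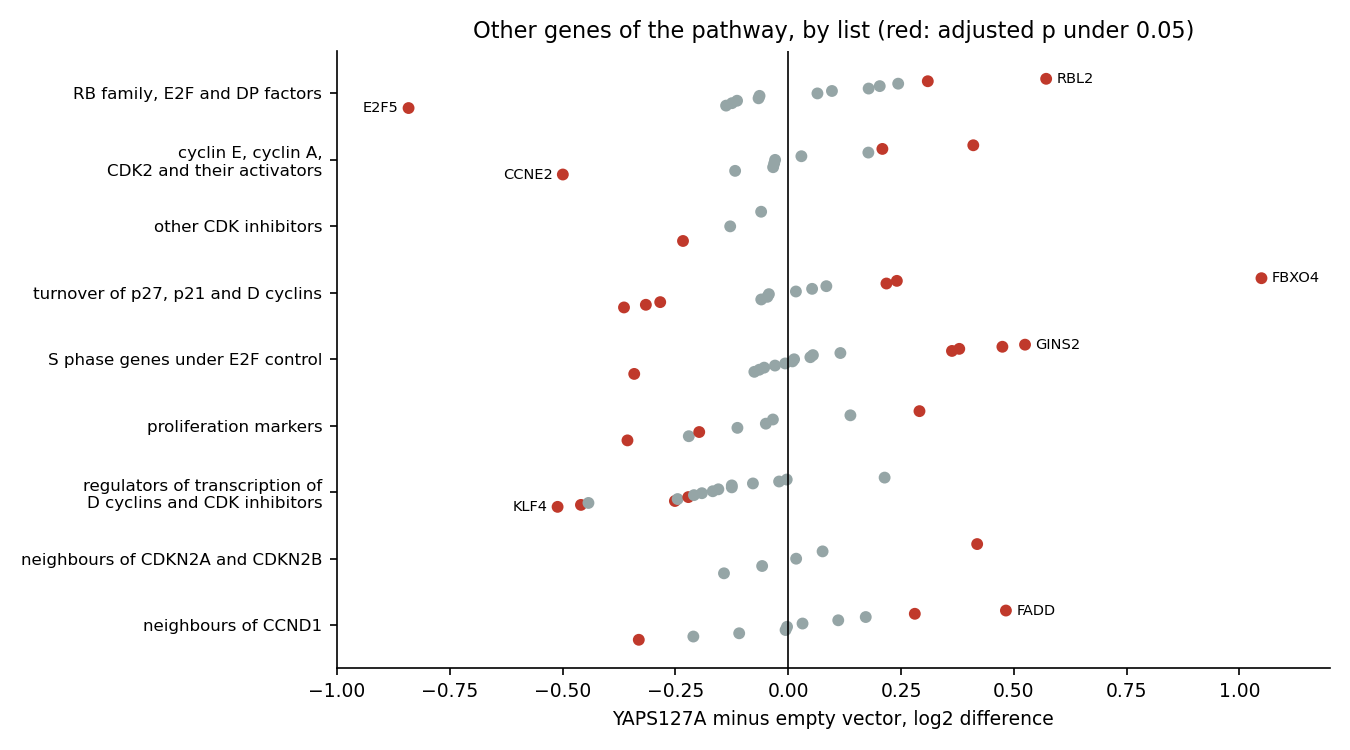
Log2 difference (YAPS127A minus empty vector, x axis) of each measured gene in 9 lists of pathway genes and neighbours (y axis), 1 point per gene at its brightest probe set, with red for an adjusted p under 0.05. Names are given where a gene passed and differed by more than 0.48, from E2F5 at -0.84 to FBXO4 at +1.05.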

How the data were processed

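Biotin-labelled RNA of HuCCT1 cells was hybridised to 1-colour arrays, per the labels. Values for 54675 probe sets on 9 arrays were used as the authors deposited them, and are taken to be log2 signals from their range. Their normalization was not given in the sources used here. Leaving 62 control probe sets aside, 54613 entered the fit. The platform annotation gave 41091 of them 1 gene, 1801 several and 11721 none, and gene IDs updated 41037 symbols. A gene is read at its brightest probe set unless all are given. No column belonged to another series (0 such columns).

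The fit was limma 3.58.1 (lmFit and eBayes in R 4.3.3), with no covariate, Benjamini-Hochberg adjustment over all probe sets, a threshold of 0.05 and 11.4 total degrees of freedom. Errors after ± are SDs, and SE is the standard error. Permutation tests ran in Python 3.11.15, and code was tested on simulated data. Members, lists and alternatives were chosen with earlier results of these data known. Beside the members, the naming rule took YAP1, ANKRD1, CCN1 and CCN2 as checks, up to 4 genes of lowest p per list and the 3 profiles most like a called member. MDM2, MYC and the cell type markers were named after their values were seen. Neighbours are up to 50 genes nearby on a chromosome (RefSeq order, GRCh38.p14) with signals above the median. Alternatives covered normalization, centring, dim probe sets, eBayes settings, weights for arrays, a replicate block, the actin control gap, arrays left out, averaged probe sets, neighbours' medians removed and exact permutation. The planned pseudocount was not needed on log values. Some listed genes are not reported here.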

Additional observations from a re-analysis of the deposited data

Results flagged for a closer look

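Single arrays stood apart from the rest of their group in 10 of the groups of 4 or 5 arrays examined, over the 28 member probe sets and the named genes of the lists. Chance flags about 5% of such groups. Both groups of each of these probe sets were examined, so some of the 10 flags are expected by chance. Among the members, empty vector replicate 3 was the lowest of its group at 209644_x_at (10.82, next 10.99) and 211156_at (4.21, next 4.58) of CDKN2A and at 200953_s_at of CCND2 (2.86, next 3.36). Empty vector replicate 4 was the highest at 201700_at of CCND3 (10.50, next 10.33). For CDKN1B, YAPS127A replicate 3 was the highest at 209112_at (12.10, next 11.88).

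Among the other genes, empty vector replicate 3 was high for RB1 (11.65, next 11.38), and RB1 passed without it (+0.31, adjusted p = 0.0192). YAPS127A replicate 1 was high for TOP2A (12.87, next 12.72) and YAPS127A replicate 4 for CDKN2B-AS1 (3.28, next 3.12). Empty vector replicate 4 was high for ELAVL2 (4.59, next 4.28) and empty vector replicate 1 for ANO1 (6.94, next 6.85).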

How the results depend on the processing

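With 5 and 4 arrays of unstated independence, differences of dim probe sets carry little information, and single brightest probe sets may not stand for a gene. The CDKN1A call held under all 18 alternatives and that of CDK6 243000_at under all 17. Counts of calls moved as follows, and the cause was not tested unless the setting itself gives it. With dim probe sets left out, which reduces the number of tests, 2 members passed (1 higher) and 2 paralog pairs. With trend and robust settings, 5 member probe sets were higher, and 2 members passed (1 higher). With probe sets averaged, 2 members passed (1 higher) and 4 pairs. With neighbours' medians removed, 1 member probe set was higher and 2 lower, 2 members passed (2 lower), and 4 pairs passed. The 4 pairs were the same in these last 2 settings: CCND1 minus CCND2, CCND1 minus CCND3, CDKN1A minus CDKN1B and CDKN1A minus CDKN1C. By unadjusted exact permutation p under 0.05, 5 probe sets were higher. Leaving out 1 array at a time gave 2 to 5 probe sets called and 1 to 4 called higher, the lowest (2 called, 1 higher) being without empty vector replicate 4 and the highest (5) without YAPS127A replicate 2.

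No pairing by replicate number was seen: deviations of same-numbered arrays correlated at -0.46 to 0.03, and 0 of 4 arrays correlated best with their own number. With only 4 pairs, and deviations taken within small groups, this cannot exclude a pairing. With the replicate block, 2 member probe sets passed, 1 of them higher, and 10306 of all probe sets were called, against 13052 without it. CDK6 224848_at (limma adjusted p = 0.0849) and 207143_at (limma adjusted p = 0.0898) lost their calls with the block. For 207143_at the call was also lost without a block when YAPS127A replicate 5 was left out (limma adjusted p = 0.0941). The paralog test had no blocked form.

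Signs turned in 36 cases, none of them past the threshold under the alternative, and 2 of them of results called in the main comparison (E2F4 and CDK1). CDKN1C 219533_at turned to -0.0041 with median centring, -0.011 with the replicate block, -0.0030 with the actin gap and -0.0021 with neighbours removed. CDK6 231198_at turned to 0.027 with array weights and 0.0097 with the replicate block. CCND3 1562028_at turned to 0.020 with array weights, and CCND2 200953_s_at to -0.017 with the actin gap. With neighbours removed, CDKN1B was at -0.022, E2F4 at -0.062, RB1 at -0.087, CDKN2D at 0.014, CDKN3 at 0.12, CDK1 at -0.010 and the dimmest YAP1 probe set at -0.018. With probe sets averaged, CDKN1B minus CDKN1C was at 0.026, CCND2 at 0.051 and CDKN2B at 0.012. Over the fits that left out 1 array, ranges crossed 0 for CDK6 231198_at (-0.063 to 0.050), CCND3 1562028_at (-0.097 to 0.054), CDKN1C 219533_at (-0.032 to 0.030), CCND2 200953_s_at (-0.063 to 0.12), CCND1 minus CCND2 (-0.063 to 0.0044), CDKN1B minus CDKN1C (-0.089 to 0.041) and CDK4 minus CDK6 (-0.053 to 0.028).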
